A study of Mus musculus with 23 samples.

Results

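Meningeal fibroblast genes were followed through bulk RNA-seq of mouse orbitofrontal cortex (OFC), the cortex at the front of the brain above the orbits. The set held 10 genes taken by symbol from the deposited table, namely Dcn, Lum, Ogn, Omd, Igf2, Igfbp2, Aldh1a2, Slc6a13, Slc22a6 and Ptgds, out of 27178 genes in all. The symbols alone decided membership, and the list was drawn up with earlier results of these data known. All 10 were in the table. Genes reaching 10 normalized counts in 5 libraries were tested, which all 10 did, among 16385 genes.

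The leptomeninges are the pia and the arachnoid, thin membranes that cover the brain and line its larger vessels. Their fibroblasts lay down collagen and small leucine-rich proteoglycans, make retinoic acid, and release insulin-like growth factors and their binding proteins into the cerebrospinal fluid. Cells of the arachnoid barrier carry transporters that move organic anions and amino acids between that fluid and the blood. The pia adheres to the cortical surface.

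All animals were male wild-type C57BL/6J mice with an age label of 8 weeks. Every mouse received an AAV6 vector in the OFC on day 0, with expression driven by a GFAP promoter. The vector carried either ZBTB7A, a zinc-finger transcription factor (its label reads as overexpression together with GFP), or GFP alone. Subthreshold social defeat, a brief encounter with an aggressive mouse, was given on day 21 to the stress groups. Social interaction, sucrose intake and swim behaviour were scored on days 22 to 27, and infected OFC tissue was dissected on day 28. The 23 libraries fell into 4 groups, ZBTB7A stress (n = 5), ZBTB7A control (n = 5), GFP stress (n = 8) and GFP control (n = 5). One label field lists the defeat for every sample, so groups were taken from the field for stress condition. A GFAP promoter is active mainly in astrocytes, so meningeal fibroblasts are not the cells it is known for. Libraries are named here by group and the number in their title. The labels do not state that each library came from a different mouse, so p-values measure the spread between these samples.

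Each library held between 12.5 and 51.9 M reads counted to genes. Mouse Zbtb7a averaged 3744 ± 173 normalized counts in ZBTB7A stress, 3716 ± 247 in ZBTB7A control, 3934 ± 251 in GFP stress and 3834 ± 629 in GFP control (SD), so it was not higher in the ZBTB7A libraries. Gfap, the astrocyte filament gene, ran from 2840 to 26388 over the libraries. GFP stress 5, 12, 20 and 21 had the lowest striatal neuron levels and ZBTB7A control 6 the highest, and results are also given without these 5 libraries. GFP stress 13 stood apart in type I collagen, with 15313 normalized counts of Col1a1, against 2008 in ZBTB7A control 23 and at most 438 in the other 21 libraries. Markers of other cell types were present in every group. Ttr, which marks the choroid plexus, ran from 3.09 to 7567 normalized counts. The summed count of 12 oligodendrocyte markers ran from 105948 to 179985 in ZBTB7A stress, 73508 to 219569 in ZBTB7A control, 47346 to 170772 in GFP stress and 97715 to 280563 in GFP control.

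The proteoglycan genes were detected in almost every library, and each had overlapping groups. Dcn encodes decorin, which binds collagen fibrils and growth factors. Its normalized counts were 222, 238, 269.6, 276 and 485 in ZBTB7A stress and 202, 208, 209.9, 343 and 402 in ZBTB7A control. GFP stress had a lowest value of 95.7, a median of 275 and a highest of 555, and GFP control had 239.7, 259, 298, 353 and 498. All 4 groups overlapped, and the lowest and the highest Dcn values of the whole set were both GFP stress libraries. Lum encodes lumican, a keratan sulfate proteoglycan of collagen fibrils. It stood at 36.3, 45.6, 65.8, 66.7 and 95.5 in ZBTB7A stress and at 40.2, 46.2, 64.5, 84.3 and 92.8 in ZBTB7A control. It ranged from 26.2 to 154 with a median of 48.6 in GFP stress, and stood at 50.6, 54.1, 73.7, 80.7 and 91.7 in GFP control. The value of 154 belonged to GFP stress 13, the library with the high Col1a1, and no other library passed 95.5.

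Ogn encodes osteoglycin, a small proteoglycan also called mimecan. It had 28.01, 47.1, 63.4, 98.7 and 106 normalized counts in ZBTB7A stress and 26.2, 31.6, 40.2, 79.5 and 172 in ZBTB7A control. In GFP stress it ran from 13.4 to 254 with a median of 72.3, and in GFP control it had 34.6, 46.6, 82.3, 147 and 155. The 18.9-fold span inside GFP stress was the span of the whole experiment for this gene, since both ends lay in that group, the largest (n = 8). Its low end, GFP stress 3, rested on 8 reads. Omd encodes osteomodulin, a proteoglycan of mineralised and fibrous tissue, and was the scarcest of the 10. It had 4.69, 5.51, 8.24, 9.78 and 15.6 in ZBTB7A stress and 0, 4.47, 7.23, 7.52 and 16.7 in ZBTB7A control. It ran from 1.503 to 22.9 with a median of 11.6 in GFP stress, and had 3.998, 6.93, 16.9, 23.2 and 38.1 in GFP control. The value of 0 was ZBTB7A control 6, the shallowest library, where no read still allows up to 5.25 normalized counts (3 reads, counting error only). Dcn and Lum are neighbouring protein-coding genes on chromosome 10, and Omd and Ogn on chromosome 13.

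The insulin-like growth factor genes were among the most abundant. Igf2 encodes a secreted growth factor of the meninges and choroid plexus. It had 918, 1139, 1257, 1485 and 1835 normalized counts in ZBTB7A stress and 967, 1007, 1015, 1108 and 2532 in ZBTB7A control. It ran from 602 to 1980.3 with a median of 1147 in GFP stress, and had 982, 1128, 2013, 2394 and 2445 in GFP control. The 3 highest GFP control values lay above all but 1 library of the other groups, ZBTB7A control 24, yet its 2 lowest lay inside the range of every other group. Exons of Igf2 overlap Igf2os on the opposite strand and Gm49394 on the same strand. The library kit does not mark strand, so reads of these genes cannot be told apart and the Igf2 values are uncertain to that extent. Igfbp2 encodes a binding protein that carries such factors. It averaged 655 ± 133 in ZBTB7A stress, 722 ± 199 in ZBTB7A control, 814 ± 360 in GFP stress and 943 ± 325 in GFP control (SD, n = 5, 5, 8 and 5), with the narrowest span of the 10 genes over all libraries, 3.27-fold.

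The enzyme and transporter genes varied widely inside every group. Slc22a6 encodes the organic anion transporter OAT1. Its normalized counts were 42.8, 102, 115, 143 and 146 in ZBTB7A stress and 62.9, 97.3, 98.3, 108 and 287 in ZBTB7A control. They ran from 43.2 to 334 with a median of 121 in GFP stress, and were 46.6, 59.8, 144, 237 and 272 in GFP control. Each group except ZBTB7A stress held at least 1 library above 200. Aldh1a2 encodes the dehydrogenase that makes retinoic acid from retinal. It had 61.0, 130.3, 131, 145 and 182 in ZBTB7A stress and 75.9, 92.7, 118, 128 and 273 in ZBTB7A control. It ran from 55.5 to 299 with a median of 139 in GFP stress, and had 85.0, 86.6, 153, 172 and 269.5 in GFP control. ZBTB7A control 24, GFP stress 20 and GFP control 19 were the highest of their groups in Aldh1a2.

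Ptgds encodes lipocalin-type prostaglandin D synthase, which makes prostaglandin D2 and carries lipids in the cerebrospinal fluid. It is also expressed by oligodendrocytes and the choroid plexus. It had 3937, 5364, 6433, 6769 and 8695 normalized counts in ZBTB7A stress and 4600.2, 4983, 4992, 5599.6 and 11189 in ZBTB7A control. It ran from 3009 to 16270.2 with a median of 7866 in GFP stress, and had 4696, 5392, 7887, 10796 and 13539 in GFP control. Its 2 highest libraries were GFP stress 20 and GFP control 19, and the groups overlapped throughout. Slc6a13 encodes GAT2, a transporter of GABA and taurine. It averaged 205 ± 55.9 in ZBTB7A stress, 187 ± 101.01 in ZBTB7A control, 207 ± 97.6 in GFP stress and 214 ± 100.8 in GFP control (SD, n = 5, 5, 8 and 5).

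**Figure D1:**
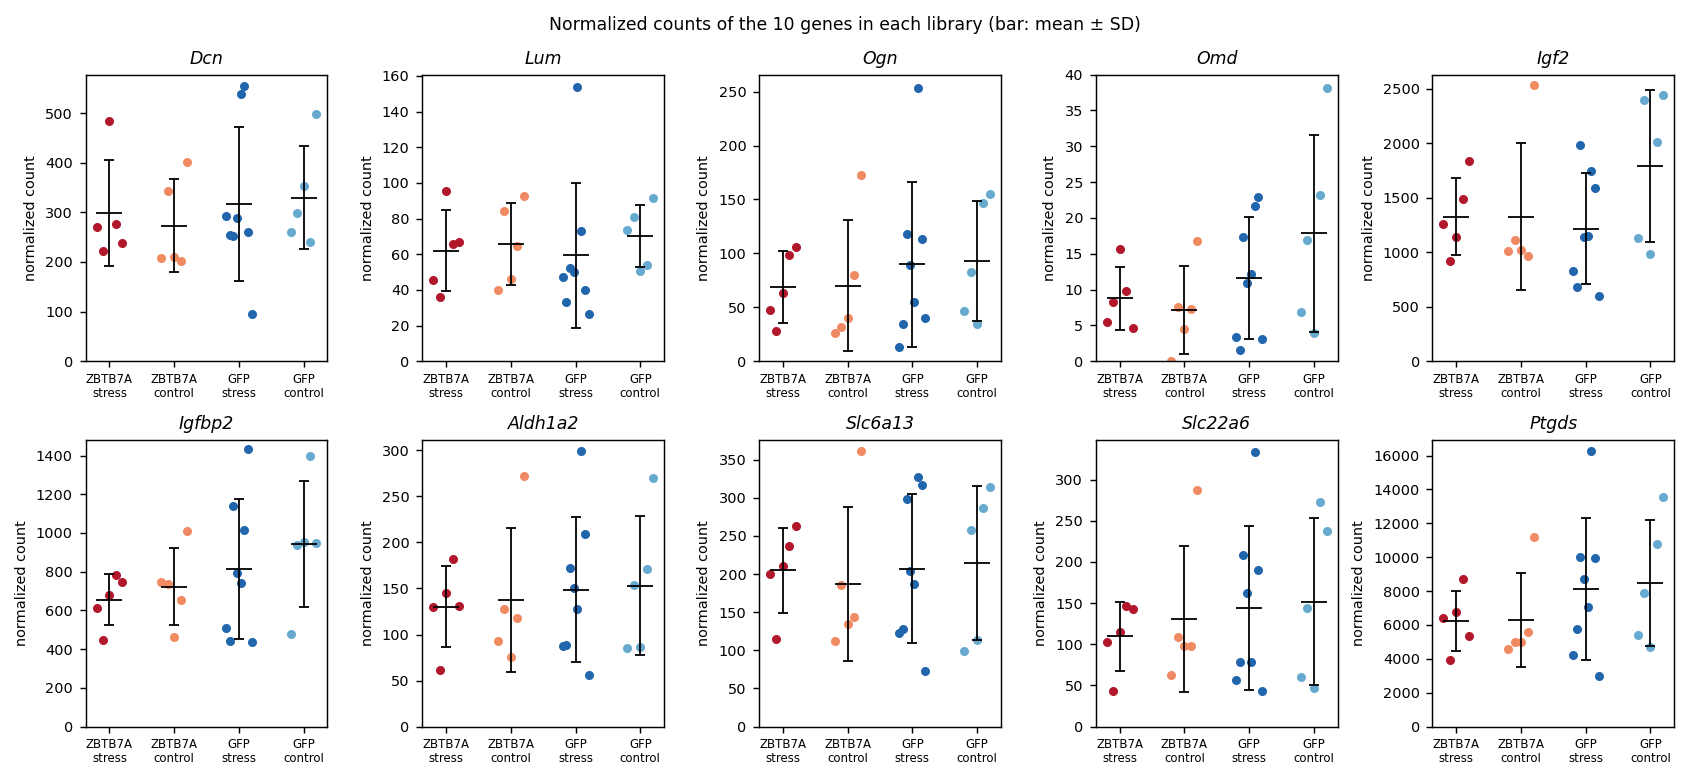
Normalized counts of the 10 genes, one panel per gene, with 1 point per library and a bar at the mean ± SD of each of the 4 groups (ZBTB7A stress, ZBTB7A control, GFP stress, GFP control). Every panel shows groups that overlap, and the GFP stress points span 3.27-fold for Igfbp2 and 18.9-fold for Ogn.

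Aldh1a2, Slc22a6 and Ptgds followed each other closely from library to library, with r of 0.92 to 0.95, and the 250 bases before their transcription starts are printed here as RefSeq gives them for GRCm38.p6. Of the 10 genes 8 had a window in that table and 5 had a single start (Ogn, Omd, Aldh1a2, Slc22a6 and Ptgds). The windows are chr9:71215539-71215788 on the plus strand for Aldh1a2, chr19:8617746-8617995 on the plus strand for Slc22a6 and chr2:25469750-25469999 on the minus strand for Ptgds. Capitals mark matches, on either strand, to the TATA box letters TATAAA, the AP-1 letters TGANTCA, the forkhead letters TGTTTAC, the TEAD letters GGAATG and the CCAAT box letters CCAAT.
Aldh1a2: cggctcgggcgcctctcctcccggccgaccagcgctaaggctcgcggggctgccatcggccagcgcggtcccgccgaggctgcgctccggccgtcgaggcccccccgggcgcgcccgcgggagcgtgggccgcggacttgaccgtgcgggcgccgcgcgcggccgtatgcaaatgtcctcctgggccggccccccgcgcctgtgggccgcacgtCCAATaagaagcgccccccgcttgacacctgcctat
Slc22a6: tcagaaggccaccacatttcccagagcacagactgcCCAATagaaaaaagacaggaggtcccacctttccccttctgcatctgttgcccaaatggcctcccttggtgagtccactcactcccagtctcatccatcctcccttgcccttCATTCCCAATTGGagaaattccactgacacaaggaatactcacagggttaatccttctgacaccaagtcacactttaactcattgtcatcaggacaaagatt
Ptgds: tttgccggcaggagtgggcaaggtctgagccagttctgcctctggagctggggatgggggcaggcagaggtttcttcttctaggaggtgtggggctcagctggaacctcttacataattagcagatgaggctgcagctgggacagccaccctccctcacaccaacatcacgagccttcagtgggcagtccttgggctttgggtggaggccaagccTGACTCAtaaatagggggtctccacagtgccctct
The windows differed in base composition. The Aldh1a2 window held 40 CpG dinucleotides and 77.6% G or C, the Slc22a6 window 0 CpG and 48.4%, and the Ptgds window 2 CpG and 58.4%, against medians of 6 CpG and 52.4% over the 32851 windows of the table. The Ptgds window held TGANTCA at 35 bases before the start. In the Slc22a6 window a GGAATG match on the minus strand overlaps CCAAT on the plus strand, which in turn overlaps CCAAT on the minus strand. Over all windows TATAAA stood in 12.4%, TGANTCA in 6.75%, TGTTTAC in 3.17%, GGAATG in 12.6% and CCAAT in 33.8%. Among the 5 windows with a single start they stood in 1, 1, 0, 2 and 2. No motif was shared by all of Aldh1a2, Slc22a6 and Ptgds.

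Levels of different genes were compared per kilobase of annotated exon (GENCODE vM21). The annotation used for counting is not given in the sources used here, so the scale is approximate. Ptgds was far above the rest at 4478 ± 2015 normalized counts per kilobase (SD over 23 libraries), followed by Igfbp2 at 426 ± 155 and Igf2 at 243 ± 99.8. Slc6a13 at 70.2 ± 29.6, Aldh1a2 at 63.2 ± 29.8 and Dcn at 52.4 ± 20.02 came next. Slc22a6 at 34.0 ± 21.03, Ogn at 31.8 ± 22.8 and Lum at 26.01 ± 11.5 followed, and Omd closed the order at 5.06 ± 4.03. Each step from Slc6a13 down to Lum was smaller than 1 SD.

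ZBTB7A and stress were then tested in a single fit of the 4 group means (limma on log2 of normalized count plus 1, two-sided, Benjamini-Hochberg over the 16385 genes, adjusted p under 0.05). Log2 fold changes are on that scale, where the added 1 compresses differences between low counts. For Omd the library at 0 also weighed on its group mean. ZBTB7A stress against ZBTB7A control was 0.63 for Omd with that library and -0.0019 without it. None of the 10 genes passed in any comparison. The same was true of all genes: limma called 0 of 16385 (0%) in each of the 4 comparisons and in the interaction, and edgeR on recovered reads also called 0. DESeq2 on recovered reads called 46 genes for ZBTB7A stress against GFP stress, 39 for GFP stress against GFP control, 3 for the interaction, 1 for ZBTB7A stress against ZBTB7A control and 0 for ZBTB7A control against GFP control. With array weights, limma called 2287, 668 and 2068 genes in the first 3 of these and 0 in the other 2. None of these calls was one of the 10 genes. No gene of the 10 had groups that did not overlap, against 0.226% of all genes for ZBTB7A control against GFP control, 1% for ZBTB7A stress against GFP stress, 0.372% for GFP stress against GFP control and 0.421% for ZBTB7A stress against ZBTB7A control.

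In unstressed mice the 10 genes were all lower with ZBTB7A than with GFP by point estimate, with a median log2 fold change of -0.32 where the median of all tested genes was -0.01 and 55.3% of them lay below 0. Omd stood lowest at -1.33 ± 0.72 (SE; limma adjusted p = 1.00), followed by Ogn at -0.54 ± 0.64, Igf2 at -0.45 ± 0.34 and Ptgds at -0.41 ± 0.38. Slc22a6 was nearest to 0 at -0.09 ± 0.56. None had an unadjusted p under 0.05, as 284 genes (1.73%) did, and every 95% interval included 0. Exact two-sided permutation over the 5 and 5 libraries gave p = 0.198 for Omd, the smallest of the 10. Without ZBTB7A control 6, where Omd was 0, the Omd value was -0.69 and 8 of 10 genes lay below 0. Without GFP control 19 the median was -0.16 with 7 of 10 below 0, and without ZBTB7A control 15 it was -0.20 with 9 of 10. The median was farthest from 0 without ZBTB7A control 24 or GFP control 1, at -0.47 with 10 of 10. Within the runs of title numbers set out below it was -0.53, -0.36 and -0.54, with 9, 9 and 10 of 10 below 0. ZBTB7A control 6 stood alone for its group in the first run and GFP control 19 in the last. With the run as a covariate the median was -0.38 with 10 of 10 below 0, and 1 had an unadjusted limma p under 0.05. The genes move together between libraries, so 10 estimates of one sign are not 10 separate observations.

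In stressed mice the 10 genes did not share a direction. The median log2 fold change of ZBTB7A stress against GFP stress was -0.08, with 6 of 10 below 0 (48.6% of all genes), and single values ran from -0.26 for Ptgds to 0.21 for Igf2. The smallest limma adjusted p was 0.712, and 0 of 10 had an unadjusted p under 0.05, against 2635 genes (16.1%). Leaving out 1 library was enough to turn the median. It was 0.13 without GFP stress 20 (2 of 10 below 0) or without ZBTB7A stress 9 (3 of 10), 0.03 without ZBTB7A stress 7, and 0.02 without GFP stress 5 or GFP stress 21. It was lowest without GFP stress 22, at -0.23. Without GFP stress 5, 12, 20 and 21 and ZBTB7A control 6 together it was 0.60 with 0 of 10 below 0, and Igf2 stood at 0.70 (limma adjusted p = 0.798). GFP stress 5, 20 and 21 were among the 6 highest libraries for these genes and among the 4 lowest in striatal markers. On recovered reads the median was -0.26 with edgeR and -0.25 with DESeq2, with 8 of 10 below 0 in each.

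Stress under the GFP vector gave log2 fold changes below 0 for all 10 genes, with a median of -0.22 (51.6% of all genes lay below 0). Igf2 had the smallest p, at -0.58 ± 0.31 (SE; 95% interval -1.22 to 0.06; limma adjusted p = 0.481). The exact two-sided permutation test gave p = 0.134 for it over 8 and 5 libraries. Omd stood at -0.61 ± 0.65 and Lum at -0.40 ± 0.32, and the others lay between -0.27 and -0.06. At an unadjusted p under 0.05 there were 0 of 10, against 1839 genes (11.2%). Without the 5 libraries the median was -0.75, and 5 of 10 had an unadjusted p under 0.05, against 5.57% of the genes tested in that fit, led by Igf2 at -1.08 (limma adjusted p = 0.678). That fit dropped GFP stress 5, 12, 20 and 21, with mean centred log2 levels of the 10 genes of 0.53, 0.18, 1.02 and 0.55. It kept GFP stress 3, 4, 13 and 22, at -0.76, -0.73, 0.19 and -1.15. The choice of libraries thus itself lowered the GFP stress values. The 10 genes also move together, so the 5 are not separate observations. On recovered reads of all 23 libraries the median was -0.05 with edgeR and -0.07 with DESeq2. Within the 3 runs of title numbers (1 to 9, 10 to 17 and 19 to 26) the median was -0.07, 0.12 and -0.80. The last run held a single GFP control library, number 19, which had the second-highest level of the 10 genes. Without that library the median was -0.02 with 6 of 10 below 0. It was -0.05 with 5 of 10 without GFP stress 22, -0.07 with 8 of 10 without GFP control 11 and -0.09 with 6 of 10 without GFP stress 3. Without GFP control 1 or GFP control 10 it was -0.35 with 10 of 10.

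Stress under the ZBTB7A vector gave a median log2 fold change of 0.05, with 4 of 10 below 0 (47.5% of all genes). Omd had the widest value at 0.63 ± 0.72, and the other 9 lay between -0.17 and 0.21. None of the 10 had an unadjusted p under 0.05, against 272 genes (1.66%), and the smallest exact permutation p was 0.484, for Omd. With edgeR and DESeq2 the median was -0.04 and -0.02, with 7 of 10 below 0 in each. Leaving out 1 library moved it between -0.07 (without ZBTB7A control 6) and 0.28 (without ZBTB7A control 24), and it also lay below 0 without ZBTB7A stress 17, 25 or 26 or ZBTB7A control 15. The interaction of virus and stress, which asks whether the ZBTB7A difference changes with stress, was below 0 for 1 of 10 genes (47.6% of all genes) and ran from -0.10 to 1.25. Its median was 0.29, and with 1 library left out lay between 0.081 (without GFP stress 22) and 0.46 (without ZBTB7A control 24), with at most 3 of 10 below 0. Its smallest limma adjusted p among them was 0.717, and 0 of 10 had an unadjusted p under 0.05, against 1216 genes (7.42%). Of the 40 exact permutation tests over genes and comparisons, the smallest p was 0.134. Each group enters 2 of the 4 comparisons, so the comparisons share libraries.

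**Figure D2:**
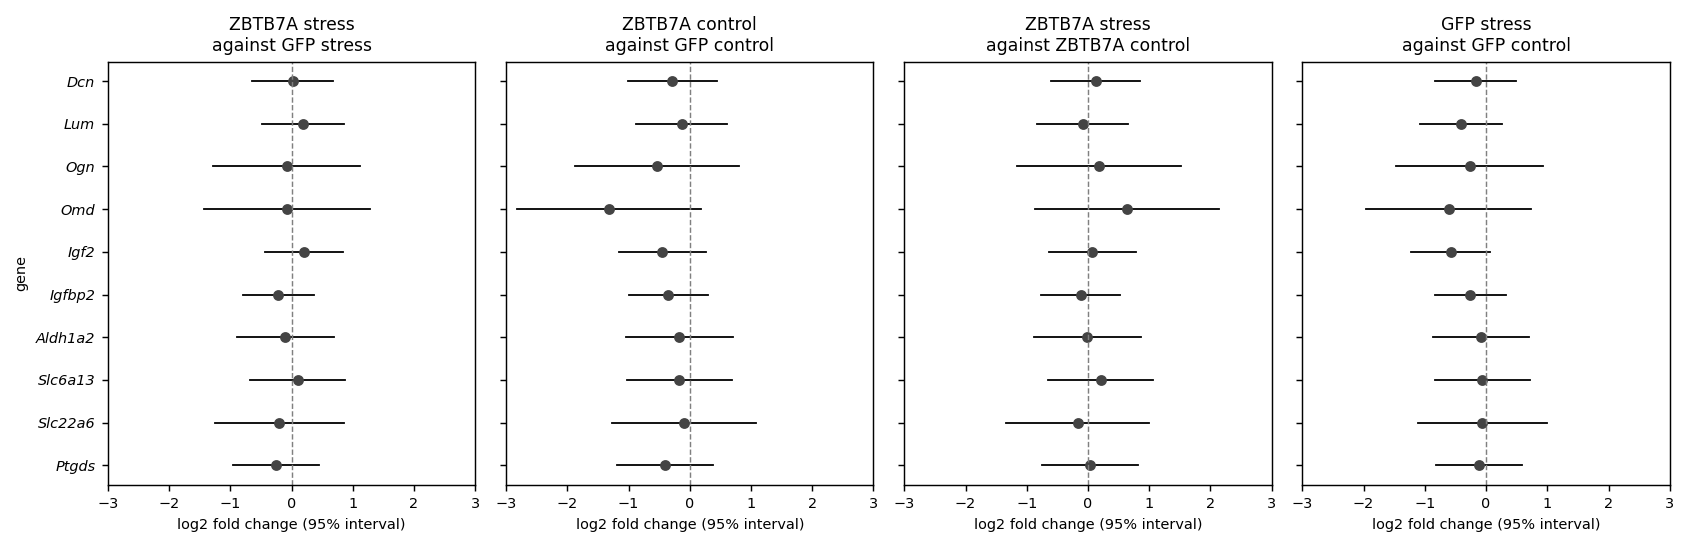
Log2 fold changes (x axis, on log2 of normalized count plus 1) of the 10 genes (y axis) in 4 comparisons, with points at the limma estimate and lines for the 95% interval. Every interval includes 0, and the widest are those of Omd and Ogn.

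Most of the variance of each gene lay between libraries of the same group. The fold between the highest and the lowest group mean was 1.15 for Slc6a13 to 2.48 for Omd. Over all 23 libraries the fold was 3.27 for Igfbp2 to 18.9 for Ogn among the 9 genes with reads in every library. Single libraries range more widely than group means by construction, so these folds are not a comparison. For these 9 genes the span inside 1 group ran from 1.75-fold (Igfbp2, ZBTB7A stress) to 18.9-fold (Ogn, GFP stress). Omd ran from 0 to 38.1. On the log2 scale the SD within groups had a median of 0.666 over the 10 genes, against 0.190 over all tested genes. Each of the 10 lay at or above percentile 88.5 of all tested genes in this SD, and Omd and Ogn lay at 99.0 and 98.4. Omd had at most 34 reads in any library and 0 in ZBTB7A control 6, so its SD includes sizeable counting error. How much was not measured. Group membership accounted for a median of 5.30% of the variance of the 10 genes, from 1.10% for Slc22a6 to 14.3% for Igf2. The median over all tested genes was 13.6%. These shares are not adjusted for fitting 4 group means, which take up some variance even with no group effect. Neither median is therefore the size of a group effect. In bulk tissue, fewer fibroblasts in a sample and less RNA of these genes per cell cannot be told apart.

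The high and the low libraries were spread over the groups. GFP stress 20 had the highest mean centred log2 level of the 10 genes, at 1.02, followed by GFP control 19 at 0.99, ZBTB7A control 24 at 0.90 and GFP control 11 at 0.67. GFP control 19 and ZBTB7A control 24 were each among the 5 highest libraries for 9 of 10 genes. The lowest were GFP stress 22 at -1.15, ZBTB7A control 6 at -0.84, GFP stress 3 at -0.76 and ZBTB7A stress 9 at -0.74. These lowest libraries were shallow, with 14.7, 12.5, 13.4 and 13.3 M reads in that order. The highest, in the order above, held 35.9, 15.8, 38.4 and 32.6 M. GFP stress 5, at a level of 0.53, held 13.5 M. The relation of each gene to reads is given below. GFP stress 22 and ZBTB7A stress 9 were each among the 5 lowest for 9 genes. Both ends of the range thus lay in GFP stress, and the highest ZBTB7A stress library stood at 0.28.

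**Figure D3:**
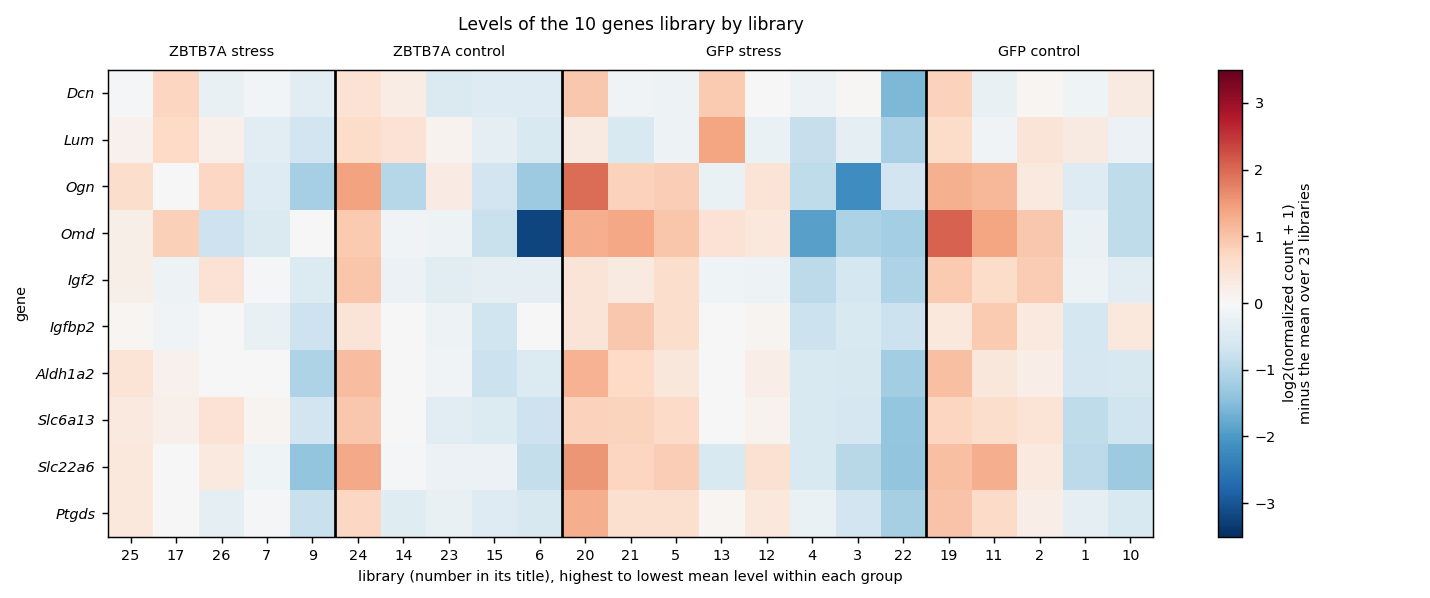
Level of each of the 10 genes (rows) in each of the 23 libraries (columns, by title number and grouped), as log2 of normalized count plus 1 minus the gene's mean. Whole columns are red or blue, such as GFP stress 20 and GFP stress 22, while Dcn and Lum depart from the other rows in GFP stress 13 and ZBTB7A stress 17.

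The 10 genes moved together from library to library, with 8 of them tightly linked and Dcn and Lum more loosely attached. Pearson r was computed for the 45 pairs over 23 libraries, each with a permutation test of 100000 resamples and Benjamini-Hochberg adjustment over the 45. It ran from 0.33 to 0.95 with a median of 0.75, and 40 pairs passed an adjusted p of 0.05 (41 by Spearman's rho). These libraries share dissection and sequencing steps. Over all pairs of tested genes the median r was -0.0031, and 1.735% of pairs exceeded 0.7, against 62.2% (28 of 45) here. On deviations from the group means the median was 0.77, and without the 2 libraries farthest from the median it was 0.76.

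Among the 8 genes other than Dcn and Lum, all 28 pairs passed, with r from 0.62 for Omd and Igfbp2 to 0.95 for Aldh1a2 and Ptgds. Setting Dcn and Lum apart was not planned and rests on these same r values, which give the split no separate support. For Aldh1a2 with Ptgds, rho was 0.92, the permutation p for each was 1e-05, the smallest that 100000 resamples can give, and the adjusted p for r was 3.21e-05. Without the 2 farthest libraries r was 0.92, and within the 3 runs of title numbers it was 0.93, 0.83 and 0.98. Aldh1a2 with Slc6a13 and Slc6a13 with Slc22a6 each reached 0.94. The retinoic acid enzyme, the GABA and organic anion transporters and the prostaglandin synthase thus formed the tightest block. The median of the 28 pairs was 0.82, 0.82 and 0.89 within the runs.

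Dcn and Lum were related to each other with r = 0.78 (rho 0.68, permutation p = 2e-05, adjusted p = 4.29e-05). Without the 2 farthest libraries it was 0.76, and within the runs 0.57, 0.87 and 0.84. With the other 8 genes they were related more weakly, r from 0.33 for Lum with Igfbp2 (permutation p = 0.130, adjusted p = 0.130) to 0.64 for Dcn with Aldh1a2, and 11 of 16 such pairs passed. The median of the 16 pairs was 0.42, -0.05 and 0.80 within the runs. The second run held only GFP control 10 and 11, GFP stress 12 and 13, ZBTB7A control 14 and 15 and ZBTB7A stress 17. So few libraries cannot show that a relation is absent. GFP stress 13 and ZBTB7A stress 17, both in the second run, were high in Dcn and Lum but not in most of the other 8. GFP stress 13 had 539 Dcn and 154 Lum but 78.5 Slc22a6 normalized counts, while GFP stress 5 had 252 Dcn and 52.1 Lum with 208 Slc22a6. Without GFP stress 13 the median of the 16 pairs was 0.54 and Dcn with Lum had r = 0.74.

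**Figure D4:**
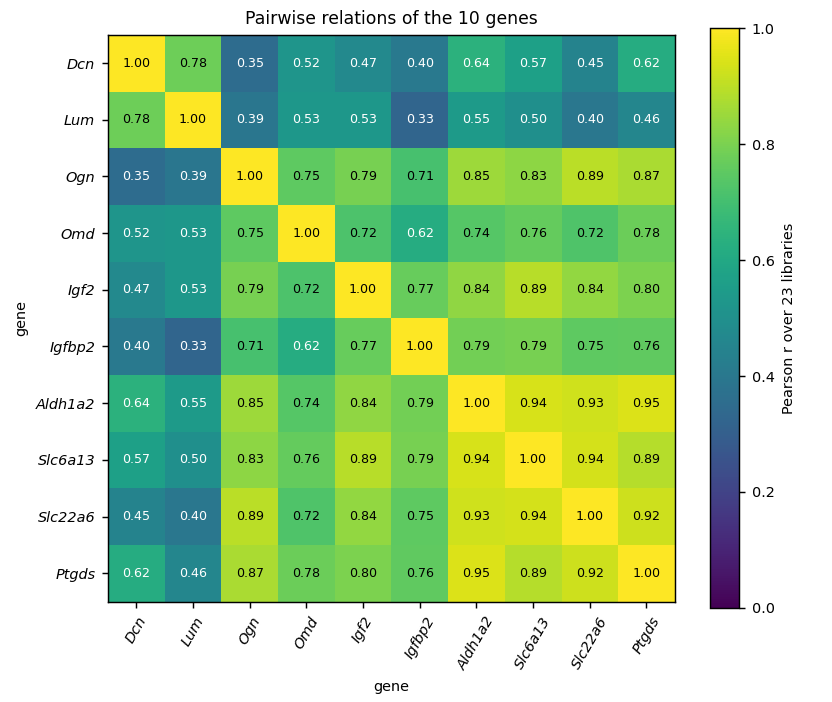
Pearson r between each pair of the 10 genes over 23 libraries (log2 of normalized count plus 1), with the value printed in each cell. The block from Ogn to Ptgds holds values of 0.62 or more, and the rows of Dcn and Lum hold 0.33 to 0.64 apart from their own pair at 0.78.

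**Figure D5:**
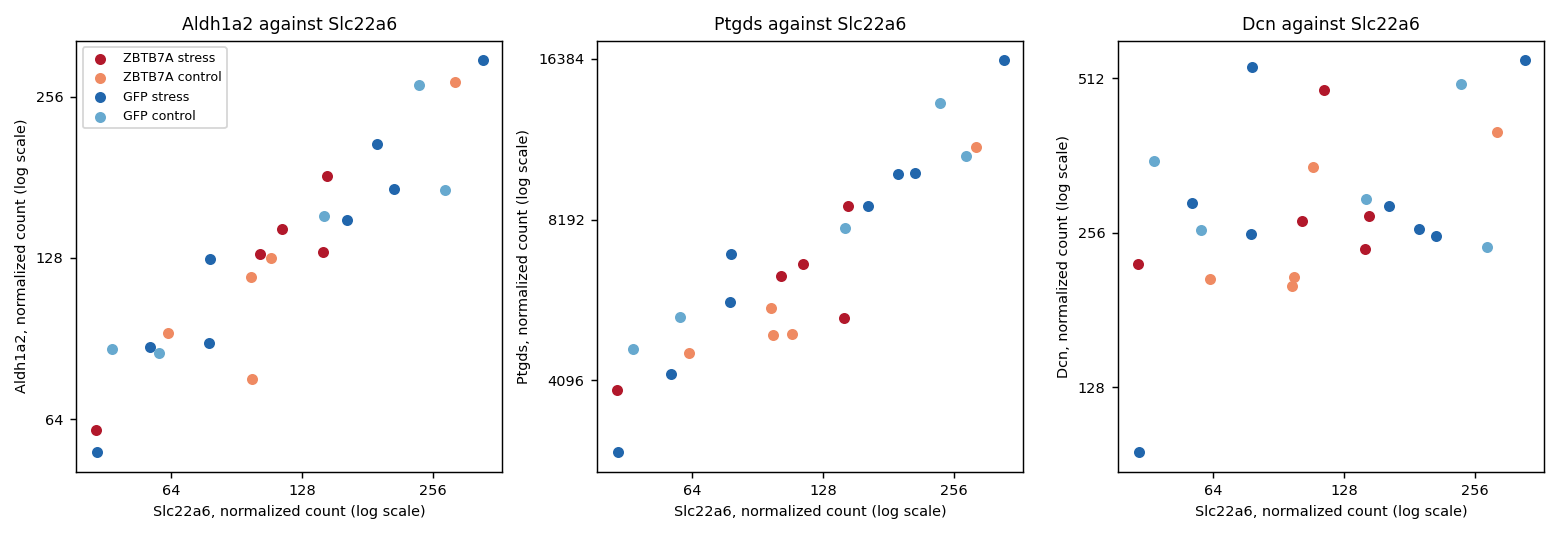
Aldh1a2, Ptgds and Dcn (y axes) against Slc22a6 (x axis) in normalized counts on log axes, 1 point per library coloured by group. Aldh1a2 and Ptgds follow Slc22a6 with r of 0.93 and 0.92 in points of all 4 groups, and Dcn scatters with r of 0.45.

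Other cell types were set beside these levels, as 100 relations of the 10 genes with 9 marker lists and with log2 recovered reads, added after the data had been seen and adjusted together. Oligodendrocyte markers ran against the genes, with r from -0.69 for Slc22a6 to -0.04 for Lum and a median of -0.55, and 6 genes passed an adjusted permutation p of 0.05. For Ptgds, which oligodendrocytes also express, r was -0.62 (rho -0.63, permutation p = 0.00169, adjusted p = 0.0290), and -0.49 without the 2 farthest libraries. Within the runs it was -0.74, -0.55 and -0.54, and without the 5 libraries -0.36. Ptgds was therefore lower where oligodendrocyte markers were higher. Endothelial markers ran with the genes, r from 0.40 to 0.63, and 5 passed (3 by rho as well), though within the second run the median r was -0.07. Border macrophage markers ran from 0.30 for Omd to 0.67 for Lum, and 4 passed.

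Markers of choroid plexus, pericytes and smooth muscle, blood, striatal neurons, cortical excitatory neurons and astrocytes passed by r with none of the 10 genes. Some of these relations changed sign between the runs of title numbers. The median r within them was -0.12, -0.18 and 0.64 for choroid plexus, -0.45, 0.37 and -0.40 for striatal neurons and -0.19, -0.56 and 0.73 for astrocytes. Recovered reads also passed by r with none, though r was above 0 for every gene (0.20 to 0.53). Ogn passed with them by rho (0.57, permutation adjusted p = 0.0344). For the choroid plexus list, which shares Igf2 and Ptgds expression with the meninges, r ran from -0.27 to 0.15. GFP control 1 had the highest Ttr, at 7567 normalized counts, and was below its median for 9 of 10 genes. The part of these cell types in the group differences was not tested. In unstressed mice the choroid plexus list of 11 tested genes had a median log2 fold change of -1.43 with ZBTB7A and under GFP one of -2.45 with stress, the same side of 0 as the 10 genes, and 0 of the 11 passed. The 12 oligodendrocyte markers had medians of -0.29 and -0.73 in those comparisons, and the 14 striatal markers -0.37 and -1.39, and 0 of either list passed. At an unadjusted limma p under 0.05, choroid plexus, oligodendrocyte and striatal counts were 7, 0 and 0 in unstressed mice (1.73% of all genes). Under GFP with stress they were 10, 11 and 12 (11.2% of all genes). For ZBTB7A stress against GFP stress the medians of these lists were 0.70, 0.65 and 1.87. The counts there were 4, 3 and 14 (16.1% of all genes). In unstressed mice and under GFP with stress the medians were -0.07 and -0.02 for 12 endothelial genes, 0.26 and -0.02 for 7 border macrophage genes, -0.10 and 0.34 for 10 cortical excitatory genes and 1.12 and 1.19 for 3 blood genes. For 12 mural genes they were 0.01 and -0.05 and for 10 astrocyte genes -0.01 and -0.07, and 0 genes of these lists passed. Under GFP with stress the unadjusted count was 2 each for cortical excitatory, mural and astrocyte genes. It was 0 each for endothelial, border macrophage and blood genes.

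The most abundant genes of each marker list were also set against the mean level of the 10 genes. The myelin gene Mbp had an r of -0.56. Mrc1 and Cd163, receptors of border macrophages, had 0.73 and -0.01, so the genes of one list could differ. Vtn and Pdgfrb of mural cells had 0.66 and 0.19, and Flt1 and Slco1a4 of endothelium 0.38 and 0.10. Ttr and Clic6 of the choroid plexus had -0.02 and -0.28, and Ppp1r1b and Penk of striatal neurons -0.33 each. Camk2a and Nrgn of cortical neurons had 0.52 and 0.25, Slc1a2 and Glul of astrocytes -0.14 and 0.26, and the globins Hbb-bs and Hba-a2 0.19 and 0.18.

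The wider pathways of these genes were read from lists chosen with earlier results known, and 0 genes of any list passed in any comparison. For the small leucine-rich proteoglycans other than the 10 genes and for the other lists, medians are given in the order ZBTB7A control against GFP control, ZBTB7A stress against GFP stress, GFP stress against GFP control and ZBTB7A stress against ZBTB7A control. The 11 other proteoglycan genes had medians of -0.13, 0.15, -0.19 and 0.03. Prelp, a proteoglycan that anchors basement membranes, and Bgn, which encodes biglycan, were the most abundant of them, and their r with the level of the 10 genes was -0.09 and 0.32. The 13 other genes of the insulin-like growth factor axis had medians of -0.01, 0.06, -0.05 and 0.02. Igfbp5, a binding protein, and Igf1r, the receptor that signals for Igf1 and Igf2, had r of -0.40 and 0.05.

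The 18 other retinoic acid genes had medians of -0.10, 0.08, -0.12 and 0.08. Rxra and Rxrb, nuclear receptors that pair with retinoic acid receptors, had r of -0.03 and 0.01 with the level of the 10 genes. The 10 other GABA and organic anion transporter genes had medians of -0.05, -0.03, 0.02 and 0.03, and the GABA transporter Slc6a11 had an r of 0.39. The 17 other prostaglandin genes had medians of 0.01, -9.5e-04, -0.0016 and -0.13, with r of 0.33 for Ptges2 and 0.06 for Ptgs1.

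Genes whose pattern was most like that of the 10 were ranked by Pearson r with their mean centred log2 level over 23 libraries, among 13407 other genes with a mean of 50 or more. The first 10 were Fmod (0.96), Slc13a4 (0.95), Slc6a20a (0.92), Tbx18 (0.89), Gjb2 (0.88), Itih2 (0.88), Mrc2 (0.86), Pcolce (0.86), Dse (0.85) and Eya1 (0.84), and the next gene had 0.83. Of the candidates 40 (0.298%) exceeded 0.7. Fmod encodes fibromodulin, a further proteoglycan of the same family, and averaged 168 ± 59.7 normalized counts in ZBTB7A stress, 190.2 ± 139.7 in ZBTB7A control, 203 ± 121 in GFP stress and 245 ± 164 in GFP control. Slc13a4 encodes a sulfate transporter and averaged 172 ± 70.7, 193 ± 144, 221 ± 147 and 245 ± 132 in the same order of groups. Slc6a20a transports proline, Gjb2 encodes connexin 26, Tbx18 is a transcription factor, Itih2 binds hyaluronan, Mrc2 takes up collagen, Pcolce enhances procollagen processing and Dse modifies dermatan sulfate. Eya1 is a transcriptional coactivator. These values describe the 23 libraries, with no test.

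A list of 45 other genes of leptomeningeal fibroblasts and the arachnoid, of which 43 were tested, was set beside the 10 genes. It was chosen with earlier results of these data known, so it gives no independent support for the name of the 10 genes. The list had a median r of 0.66 with the level of the 10 genes. Of its genes 28 of 43 (65.1%) exceeded 0.5, against 2.53% of the 16375 tested genes outside the 10. Those named here were picked after their values were seen. Bmp7, a secreted signal of the meninges, had 0.80, Slc22a8, the organic anion transporter OAT3, had 0.77, and Crabp2, a retinoic acid binding protein, had 0.75. The fibroblast collagens had lower r over all libraries, Col3a1 with 0.40, Col1a2 with 0.39 and Col1a1 with 0.29. The type I collagen values include GFP stress 13 and ZBTB7A control 23, which stood far above the rest. Col1a1 was 15313 and 2008 normalized counts there, against at most 438 in the other libraries. The r without these libraries was not computed, so how closely the collagens follow the 10 genes elsewhere is not known. Zic1, a transcription factor also expressed by neurons, had -0.19. This list had medians of -0.19, -0.10, -0.08 and 0.07 over the 4 comparisons in the order above, and 0 of 43 passed.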

How the data were processed

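Polyadenylated RNA, purified with Trizol and RNeasy Micro columns, went into TruSeq RNA v2 libraries, per the labels. Tools listed in the submitters' processing notes are DESeq2 2.11.40.6, featureCounts 2.0.1 and HISAT2 2.1.0, and mm9 and mm10 are listed as builds with no role given. The deposited values are a signal, normalized counts per gene, with no correction for length. They were whole multiples of 1 step per library (100% within 0.02 reads), which gave back the reads. Totals after normalization ran from 21.5 to 25.2 M. Of 27606 entries 428 identical repeats were removed, and 4174 genes were at 0 throughout.

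The members and lists were chosen with earlier results of these data known. Genes named are the 10 members, Zbtb7a, Gfap, per other list the 2 of highest mean (none passed; 2 such genes are not reported here), and the 10 genes most like the members. Others (Ttr, further leptomeningeal genes and the genes under other observations) were chosen after their values were seen. The model was limma 3.58.1 in R 4.3.3, trended and robust, with a pseudocount of 1. Alternatives were TMM, array weights, number run as a covariate, edgeR 4.0.16, DESeq2 1.42.0, a mean of at least 50, all genes unfiltered, a pseudocount of 5, and fits without 5 libraries or without each library. The fit was tested on simulated counts. Python 3.11.15, pandas 2.3.3, numpy 2.4.6, scipy 1.17.1 and matplotlib 3.10.9 did the rest. Sequences are from RefSeq (GRCm38.p6). The limit given for a count of 0 covers counting error only, while limma's intervals rest on the spread between libraries.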

Additional observations from a re-analysis of the deposited data

Results flagged for a closer look

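Of 40 sets of values (10 genes in 4 groups), 4 held a library far from the rest of its group, where chance gives about 5% of sets. Dcn was 484.8 normalized counts in ZBTB7A stress 17, above 222 to 276 in the other ZBTB7A stress libraries. Dcn was 95.7 in GFP stress 22, below 252 to 555 in the other GFP stress libraries, and this library was the lowest of its group for 8 of the 10 genes. Igf2 was 2532 in ZBTB7A control 24, above 967 to 1108 in the rest of that group, and Ptgds in the same library was 11189, above 4600.2 to 5599.6. ZBTB7A control 24 was the highest of its group for all 10 genes.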

How the results depend on the processing

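No paired analysis was possible because the groups share no replicate numbers. None of the 10 genes passed under any alternative. TMM scaling moved the median of all genes by under 0.1 (log2). Calls over all genes moved with DESeq2 (46, 39, 3 and 1, given in the report) and with array weights, which gave 2287 for ZBTB7A stress against GFP stress, 668 for GFP stress against GFP control and 2068 for the interaction. Leaving out 1 library gave 0 to 3 calls for ZBTB7A stress against GFP stress (3 without GFP stress 13) and 0 to 82 for the interaction (82 without ZBTB7A control 6), and 34 to 44 related pairs (34 without GFP stress 22). The cause was not tested.
Signs turned in 30 of 445 values under the other alternatives and in 86 of 1150 with a library left out. For ZBTB7A stress against GFP stress, the values without the 5 libraries were 0.51 for Aldh1a2, 0.30 for Igfbp2, 0.92 for Ogn, 0.88 for Omd, 0.34 for Ptgds and 0.69 for Slc22a6. With edgeR and DESeq2 Dcn was -0.10 and -0.092 and Slc6a13 -0.0086 and -0.011. For ZBTB7A control against GFP control, Lum was 0.023 and Slc22a6 0.12 without the 5 libraries. For ZBTB7A stress against ZBTB7A control, number run gave 0.035 for Aldh1a2 and 0.011 for Lum. There edgeR and DESeq2 gave -9.0e-04 and -5.5e-05 for Igf2, -0.078 and -0.036 for Ogn and -0.0074 and -0.0083 for Ptgds. Array weights gave -0.073 for Ogn and -0.020 for Ptgds, and without the 5 libraries Ogn was -0.072, Omd -0.0019 and Ptgds -0.059. For the interaction, edgeR gave -0.088 for Aldh1a2 and -0.072 for Ogn, DESeq2 -0.051 for Aldh1a2, number run 0.082 for Slc22a6 and the 5 libraries left out 0.57 for Slc22a6.
With 1 library left out, the genes whose sign turned ranged as follows. For ZBTB7A control against GFP control, Aldh1a2 -0.45 to 0.068, Lum -0.27 to 0.023, Slc22a6 -0.43 to 0.20 and Slc6a13 -0.44 to 0.0039. For ZBTB7A stress against GFP stress, Aldh1a2 -0.28 to 0.15, Dcn -0.20 to 0.16, Ogn -0.40 to 0.20, Omd -0.35 to 0.11, Slc22a6 -0.40 to 0.11 and Slc6a13 -0.091 to 0.29. For GFP stress against GFP control, Aldh1a2 -0.26 to 0.15, Dcn -0.31 to 0.049, Ogn -0.56 to 0.043, Ptgds -0.30 to 0.080, Slc22a6 -0.40 to 0.23 and Slc6a13 -0.30 to 0.13. For ZBTB7A stress against ZBTB7A control, Aldh1a2 -0.19 to 0.27, Dcn -0.062 to 0.28, Igf2 -0.053 to 0.33, Igfbp2 -0.27 to 0.011, Lum -0.26 to 0.085, Ogn -0.072 to 0.60, Omd -0.0019 to 1.03, Ptgds -0.10 to 0.26 and Slc22a6 -0.38 to 0.17. For the interaction, Aldh1a2 -0.17 to 0.35, Igfbp2 -0.025 to 0.36, Ptgds -0.049 to 0.38 and Slc22a6 -0.40 to 0.23.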

Other observations

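Bone and marrow genes stood out in GFP stress 13, the library with the highest Lum, and some of them more weakly in ZBTB7A control 23. These genes were chosen after their values were seen. Col1a1 and Col1a2, the chains of type I collagen, reached 15313 and 7416 normalized counts in GFP stress 13 and 2008 and 1547 in ZBTB7A control 23, against at most 438 and 714 in the other 21 libraries. Bglap, which encodes the bone matrix protein osteocalcin, was 245 in GFP stress 13 and 31.1 in ZBTB7A control 23, with a median of 0 and a highest value of 3.01 in the other 21. Ibsp, the bone sialoprotein, was 206 and 40.601 in these libraries, against at most 11.7 elsewhere. Mmp13, a collagenase of bone and cartilage, was 276 in GFP stress 13 and 36.2 in ZBTB7A control 23, against at most 33.1.

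Acp5 and Ctsk, enzymes of bone-resorbing osteoclasts, were 566 and 462 in GFP stress 13 and 88.4 and 121 in ZBTB7A control 23, against at most 81.3 and 152 in the other 21 libraries, so Ctsk did not stand out in ZBTB7A control 23. Camp, an antimicrobial peptide of neutrophil precursors, was 614 in GFP stress 13 and 231 in ZBTB7A control 23, although it also reached 262 in another library. Omd, which is also a bone proteoglycan, was 12.2 in GFP stress 13, inside the range of its group, and Ogn was 55.1 there. Without GFP stress 13 the log2 fold change of GFP stress against GFP control was -0.63 for Lum (limma adjusted p = 0.255) and -0.30 for Dcn (limma adjusted p = 0.635). The part of this library's other genes in its Lum and Dcn values was not tested.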
